A study of Mus musculus with 18 samples.

Results

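The genes of cholesterol and fatty acid synthesis were followed across 18 RNA-seq libraries of sorted mouse thyroid cells. They are 30 genes listed by symbol, out of 23626 named entries in the deposited table, and all 30 were found there in capital letters. The list is one of symbols, set with no threshold on measured values. The list holds 17 enzymes of the sterol pathway, from HMGCS1 at the entry to the mevalonate route to DHCR7 near its end. It also holds 4 regulators (INSIG1, SREBF1, SREBF2 and SCAP) and 9 enzymes that make, desaturate or elongate fatty acids (ACLY, ACACA, FASN, SCD1, SCD2, ELOVL5, ELOVL6, FADS1 and FADS2).

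Both routes start from acetyl-CoA. Cholesterol is made through mevalonate, isoprenoids, squalene and lanosterol, and fatty acids through malonyl-CoA. The SREBP transcription factors, encoded by SREBF1 and SREBF2, switch on the genes of both routes once SCAP has escorted them out of the endoplasmic reticulum. INSIG1 holds SCAP back when sterol is plentiful. Raised FASN has been described in several carcinomas, thyroid cancer among them.

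The 15 tumours fell into 3 groups that all carried BrafV600E, an activating change of the kinase Braf. K5-Tert tumours (n = 4) also carried a transgene that drives Tert, the catalytic subunit of telomerase, from the keratin 5 promoter. Tert-123 tumours (n = 7) also carried Tert-123C>T, a change in the Tert promoter, and Braf tumours (n = 4) carried BrafV600E alone. The remaining 3 libraries were pools that lacked the Braf mutation: a K5-Tert pool, a Tert-123C>T pool and a wild-type pool, although the source label calls these, too, thyroid tumour. All cells were collected at 20 weeks and labelled naive for treatment and as YFP-sorted thyrocytes. How many animals a pool holds is not given, nor how the Braf mutation was switched on, nor whether each tumour library is a separate animal. The p-values therefore set differences against the spread between these libraries, which may not be separate animals. With 1 library per pool genotype, the spread between pools of 1 genotype is not measured.

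Values are TPM, a measure of RNA abundance that accounts for transcript length and gives each library the same total, so levels can be set side by side between genes. The read depth is unknown. TERT separated K5-Tert tumours from the others, while Tert-123 and Braf tumours overlapped, with 73.9, 11.2, 19 and 53.4 TPM in K5-Tert tumours, 2.65 to 6.23 TPM in Tert-123 tumours and 3.78 to 5.12 TPM in Braf tumours, and with 125, 8.79 and 2.15 TPM in the K5-Tert, Tert-123 and wild-type pools. The 9 thyrocyte markers (TG and others) summed to 376 to 1230 TPM in the 15 tumours and to 26200 to 32300 TPM in the 3 pools. The 8 alveolar type 2 markers (SFTPB and others) summed to 5190 to 14000 TPM in tumours and to 103 to 244 TPM in pools, and the 10 macrophage markers to 221 to 5220 TPM in tumours and 61.2 to 293 TPM in pools. SFTPC, the defining gene of alveolar type 2 cells, was at 0 in the pools and at 0 to 20 TPM in tumours, and no gene of the thyrocyte or macrophage lists was at 0 throughout either. Thyrocyte markers, the label of all libraries, were thus present in every library but far lower in the tumours. Whether the differences below come with these other markers was not tested. In such bulk libraries, fewer cells of a type and less RNA per cell cannot be told apart.

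Promoter windows (250 bases before to 50 after a RefSeq start, build GRCm38.p6) were at hand for 24 of the 30 genes, 30 windows in all. Of 4 short motifs searched on both strands, CCAAT (bound by NF-Y) was in 70% of these windows and in 37.4% of all 32851 windows. The GC box GGGCGG (bound by Sp1) was in 73.3% of these windows and in 35.7% of all windows. The E-box CACGTG was in 23.3% of these windows and in 7.15% of all windows. The 23.3% stands for 7 windows of 6 genes, since overlapping SCAP windows hold the same match. The sterol regulatory element, searched as TCACNCCAC, was in 1 window of the list, that of HMGCS1 (3.33%), and in 1.24% of all windows. A match is a description of the letters, not of binding. The following windows are shown for HMGCS1, the single match to the sterol element, for INSIG1, which has an E-box, and for FASN and ELOVL6, the pair that differed most between tumours and pools. They are chr13:119690101-119690400 (plus strand), chr5:28071162-28071461 (plus), chr11:120824498-120824797 (minus) and chr3:129532136-129532435 (plus), with sterol element, E-box and CCAAT matches in capitals.
HMGCS1: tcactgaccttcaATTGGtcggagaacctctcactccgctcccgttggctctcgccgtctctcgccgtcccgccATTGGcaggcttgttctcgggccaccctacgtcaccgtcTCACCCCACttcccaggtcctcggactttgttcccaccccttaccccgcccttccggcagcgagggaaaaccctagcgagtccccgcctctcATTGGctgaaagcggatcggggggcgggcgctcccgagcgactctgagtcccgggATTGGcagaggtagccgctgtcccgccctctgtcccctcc
INSIG1: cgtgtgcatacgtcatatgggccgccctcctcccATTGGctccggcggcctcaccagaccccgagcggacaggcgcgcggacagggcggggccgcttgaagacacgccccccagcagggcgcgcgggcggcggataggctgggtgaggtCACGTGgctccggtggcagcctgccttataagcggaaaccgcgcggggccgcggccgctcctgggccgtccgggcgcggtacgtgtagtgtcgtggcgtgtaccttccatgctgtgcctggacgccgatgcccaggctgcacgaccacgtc
FASN: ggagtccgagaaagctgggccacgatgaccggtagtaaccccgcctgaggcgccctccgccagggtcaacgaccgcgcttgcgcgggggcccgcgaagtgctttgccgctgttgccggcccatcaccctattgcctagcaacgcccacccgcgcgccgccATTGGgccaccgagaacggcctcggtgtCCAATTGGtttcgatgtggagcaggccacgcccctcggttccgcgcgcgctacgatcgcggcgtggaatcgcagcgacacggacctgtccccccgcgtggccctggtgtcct
ELOVL6: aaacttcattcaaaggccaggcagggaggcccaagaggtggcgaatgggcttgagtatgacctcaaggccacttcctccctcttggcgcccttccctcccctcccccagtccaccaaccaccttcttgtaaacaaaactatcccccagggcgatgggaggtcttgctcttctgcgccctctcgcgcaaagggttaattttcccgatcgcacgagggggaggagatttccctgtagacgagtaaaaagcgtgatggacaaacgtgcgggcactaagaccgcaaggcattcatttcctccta

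In the HMGCS1 window the sterol element began 137 bases before the start (offset -137), and in the INSIG1 window the E-box began at offset -101. The FASN window held 3 CCAAT matches, 2 of which overlap, and neither of the first 2 motifs. The ELOVL6 window held none of the 4 motifs.

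Levels differed widely among the genes. The fatty acid enzymes FASN and ACLY stood highest in the 15 tumours, with means of 116.8 ± 41.9 and 99.4 ± 28.5 TPM (SD, n = 15). SREBF1 averaged 73.0 ± 21.4 TPM and SCD2 63.3 ± 16.9 TPM. The sterol enzymes were lower: FDPS, the farnesyl diphosphate synthase, led them at 26.02 ± 7.729 TPM and HSD17B7, a ketosteroid reductase of the pathway, was last at 1.64 ± 0.714 TPM. A level of 10 TPM or more in at least 4 libraries was required for a test, and 19 of the 30 genes reached it. The other 11 (MVK, MVD, IDI1, SQLE, LSS, CYP51, NSDHL, HSD17B7, DHCR7, TM7SF2 and ELOVL6) were tested only in a fit with no filter. ELOVL6 reached 10 TPM in the 3 pools alone. SCD1 and SCD2 are close paralogues, and how shared reads were assigned between them is not given.

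**Figure D1:**
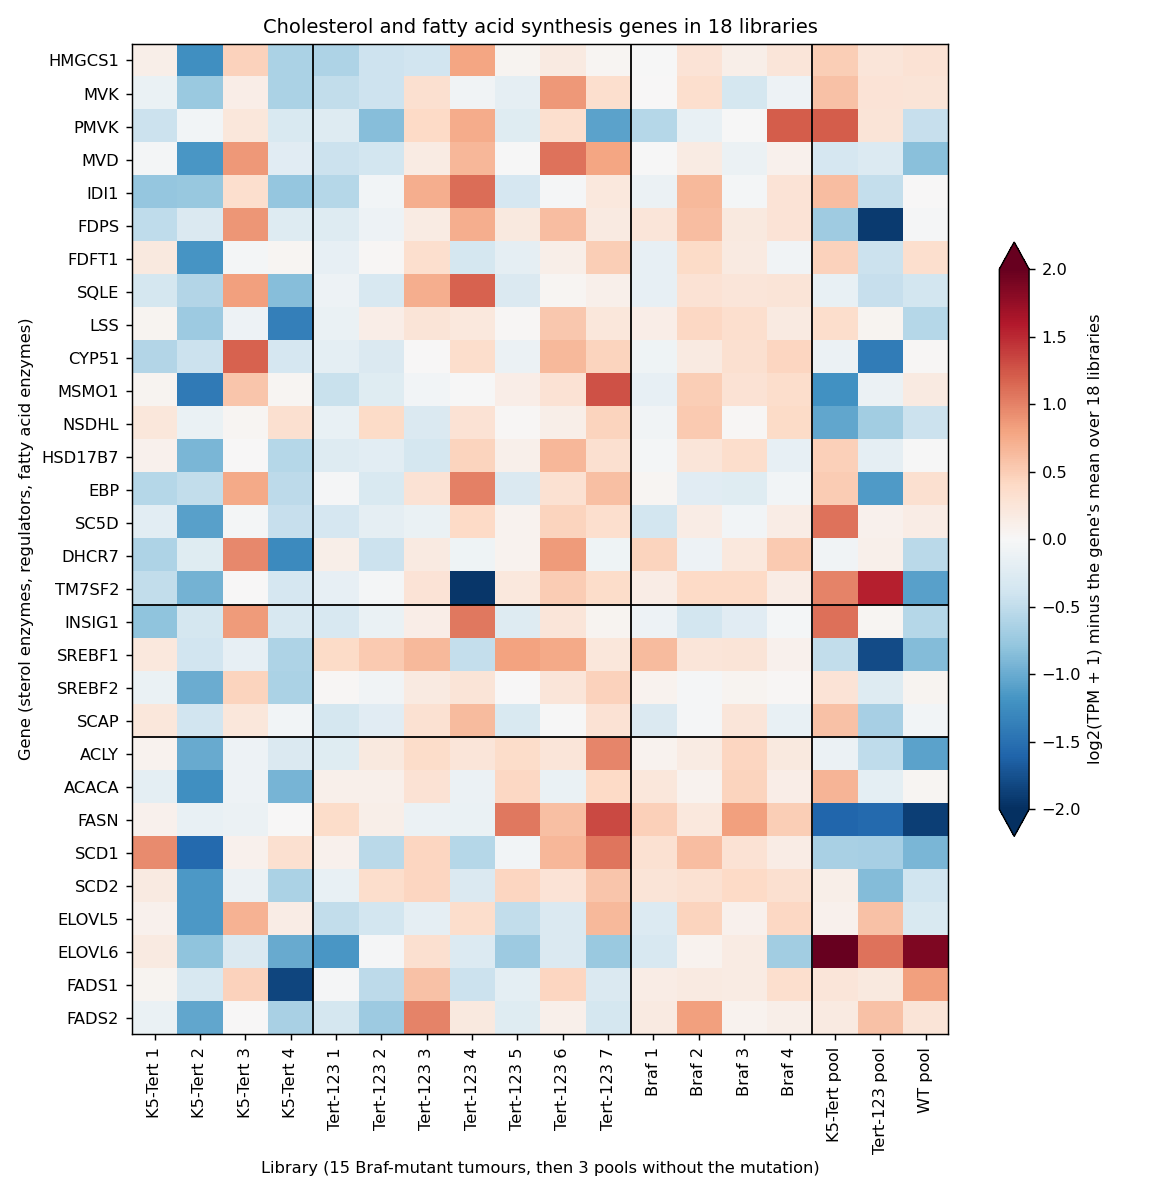
Level of each of the 30 genes (rows) in each of the 18 libraries (columns), as log2(TPM + 1) minus the mean of that gene over the libraries, with red higher and blue lower. FASN is blue and ELOVL6 red in all 3 pools on the right, K5-Tert tumour 2 is blue for most genes, and the sterol enzymes of K5-Tert tumour 3 and Tert-123 tumour 4 are mostly red.

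Set against pools without the Braf mutation, tumours with it had 3 higher genes among the 19 tested, about the share over all genes. FASN, SREBF1 and FDPS were higher in tumours, and 16 of the 19 tested genes did not pass the test. Of all 7825 genes tested, 15.4% were higher and 10% were lower, against 3 of 19 and 0 of 19 here. The median log2 fold change of the 19 genes was -0.06, beside 0.07 over all genes. Each pool is 1 library, and the fit held the Tert allele beside the mutation, over all 18 libraries. Leaving out a pool therefore also takes the tumours of its Tert allele out of the estimate of the Braf effect.

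FASN, the synthase that builds palmitate, was at 93.1, 78.7, 80.8 and 88.4 TPM in K5-Tert tumours. In Tert-123 tumours its lowest, median and highest values were 80.4, 113.0 and 220.9 TPM, and in Braf tumours it was at 123.1, 101.7, 155.4 and 123.8 TPM. The K5-Tert, Tert-123 and wild-type pools held 28.5, 29.1 and 22.98 TPM. Every tumour was above every pool. The log2 fold change was 1.985 (SE 0.264, adjusted p = 6.409e-06), and it passed the test without any 1 of the 18 libraries. Over each pool of the same Tert allele the difference of mean log2 levels of FASN was 1.55 with K5-Tert, 2.02 with Tert-123 and 2.39 with neither. FASN was the 1 gene of the 19 tested whose tumours all lay above the pools, as did 5.71% of all genes tested. None of the 19 had every tumour below every pool, as did 5.69% of all genes.

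SREBF1, which encodes the SREBP that favours fatty acid genes, was also higher. It had 70.3, 46, 53.5 and 38.9 TPM in K5-Tert tumours, a lowest, median and highest of 43.0, 87.3 and 105.6 TPM in Tert-123 tumours, and 94, 71.8, 72.1 and 64.1 TPM in Braf tumours. The 3 pools held 42.7, 16.7 and 32.5 TPM, so 14 of 15 tumours were above all pools and K5-Tert tumour 4 overlapped them. The log2 fold change was 1.24 (SE 0.294, adjusted p = 0.0031). SREBF2, whose product favours the sterol genes, did not pass (27.2 ± 6.32 TPM in tumours and 27.3 ± 5.07 TPM in pools, SD, n = 15 and 3).

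FDPS makes farnesyl diphosphate, the branch point towards sterols and protein prenylation. It had 15.1, 17.7, 41.5 and 18.3 TPM in K5-Tert tumours, a lowest, median and highest of 18.3, 25.04 and 37.04 TPM in Tert-123 tumours, and 26.3, 34.2, 25.3 and 26.7 TPM in Braf tumours. The pools held 12.99, 5.11 and 21.6 TPM, and 10 of 15 tumours were above all of them. The log2 fold change was 1.09 (SE 0.304, adjusted p = 0.0104). The rises of SREBF1 and FDPS rested on the Tert-123 pool, set against the Tert-123 tumours. Without that library SREBF1 stood at a log2 fold change of 0.71 (adjusted p = 0.1199) and FDPS at 0.51 (adjusted p = 0.2779), and FASN alone remained of the 3. That pool also held the highest summed markers of T cells (177 TPM), endothelium (821 TPM), C cells (1144 TPM), parathyroid (642 TPM) and white adipocytes (169 TPM) among the pools, whose part in the result was not tested.

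ELOVL6, the elongase that extends palmitate towards stearate, went the other way from FASN. It was at 5.71, 2.38, 3.84 and 1.94 TPM in K5-Tert tumours, at a lowest, median and highest of 1.64, 3.83 and 6.34 TPM in Tert-123 tumours, and at 3.70, 5.17, 5.58 and 2.65 TPM in Braf tumours. The pools held 35.4, 11.5 and 20.4 TPM, so 15 of 15 tumours were below every pool. In the fit with no filter on low values its log2 fold change was -2.20 (SE 0.344, adjusted p = 0.0002), and it passed without any 1 of the 18 libraries. The ratio of FASN to ELOVL6 was 12.7 to 87.4 in the tumours and 0.803, 2.53 and 1.13 in the K5-Tert, Tert-123 and wild-type pools. This ratio was chosen after the values were seen and is given without a test. In the same fit NSDHL, a sterol dehydrogenase that acts after lanosterol, was higher at low levels (3.38 to 6.71 TPM in tumours, 1.59, 2.29 and 2.98 TPM in pools). Its log2 fold change was 0.87 (SE 0.237, adjusted p = 0.0171), which did not pass without the K5-Tert pool or without the Tert-123 pool. With no filter, 4 of 30 genes were thus higher and 1 lower, beside 7.88% higher and 6.27% lower over all 22693 genes.

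**Figure D2:**
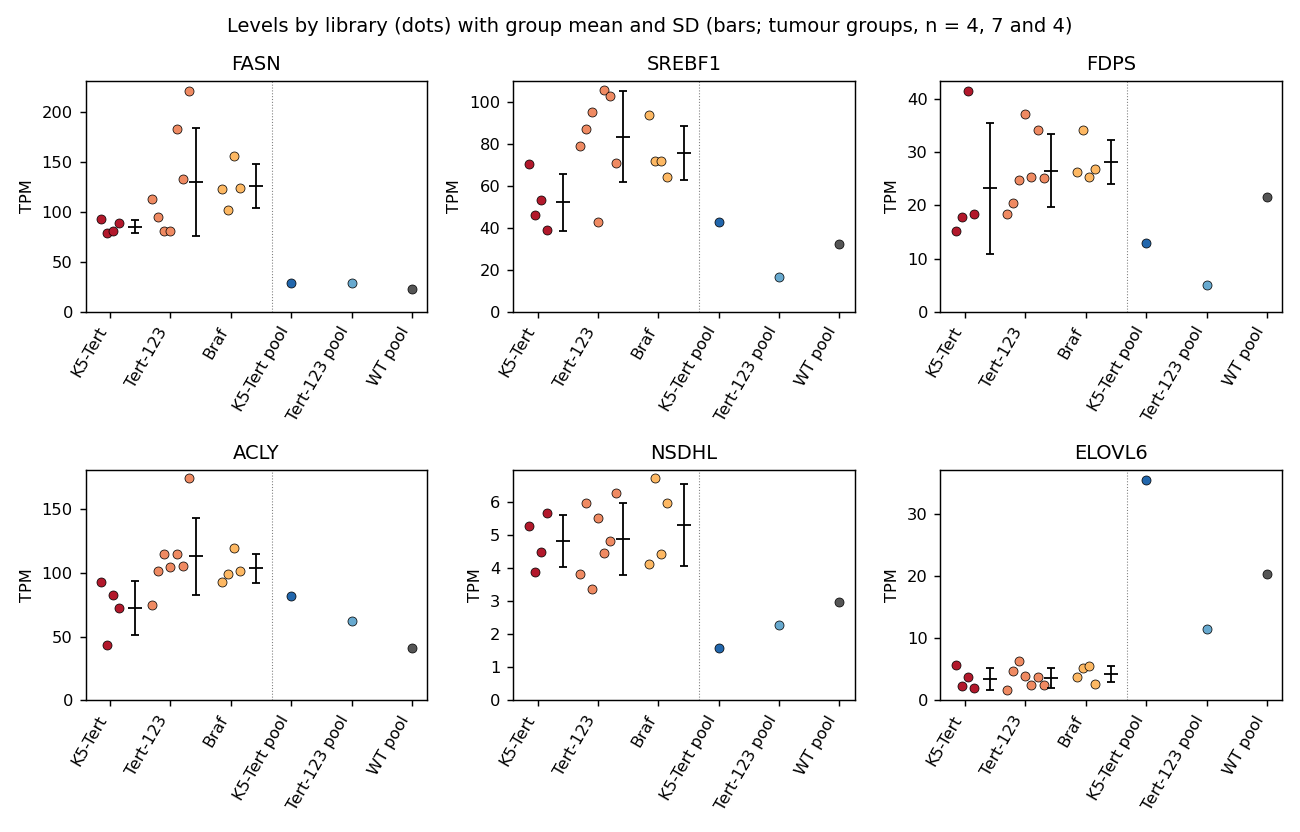
TPM of 6 genes by library (dots), with the mean and SD of each tumour group (bars) and the 3 single pools to the right of the dotted line. FASN and NSDHL lie higher in every tumour than in every pool and ELOVL6 lower, while SREBF1, FDPS and ACLY overlap.

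The remaining enzymes around FASN were split. ACLY, which makes cytosolic acetyl-CoA from citrate, averaged 99.4 ± 28.5 TPM in tumours and 61.6 ± 20.0 TPM in pools, with a log2 fold change of 0.63 (SE 0.266, adjusted p = 0.0858). The stearoyl-CoA desaturase SCD1 averaged 29.9 ± 11.9 TPM in tumours and 14.4 ± 1.58 TPM in pools (0.88, SE 0.368, adjusted p = 0.0844), and 14 of 15 tumours were above all pools. ACACA, the carboxylase just before FASN, averaged 15.9 ± 4.49 TPM in tumours and 18.4 ± 6.39 TPM in pools (log2 fold change -0.23, adjusted p = 0.5881). The polyunsaturated fatty acid desaturases FADS1 and FADS2 had log2 fold changes of -0.50 and -0.42, and ELOVL5, which elongates polyunsaturated chains, of -0.14, all short of the threshold. When libraries were rescaled by trimmed means of log ratios (TMM-type factors), 6 of 19 genes were higher, with ACLY (adjusted p = 0.0033), SCD1 (0.0339) and SCD2 (0.0321) joining the first 3, and 1 was lower. The lower one was SC5D, a late sterol desaturase (-0.58, adjusted p = 0.0166, against -0.56 and adjusted p = 0.1739 as deposited). The background on that scale was 21.6% higher and 18.8% lower.

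Along the sterol route, HMGCS1, the synthase that opens it, averaged 8.77 ± 3.15 TPM in tumours and 11.4 ± 1.18 TPM in pools (log2 fold change -0.41, SE 0.322, adjusted p = 0.3873). FDFT1, which makes squalene, had a log2 fold change of -0.14, and the phosphomevalonate kinase PMVK of -0.39. MSMO1, a methyl sterol oxidase, and EBP, a sterol isomerase, stood at 0.44 and 0.10. None of these passed the test. Below the filter, the log2 fold changes of MVK, MVD, IDI1, SQLE, LSS, CYP51, HSD17B7, DHCR7 and TM7SF2 lay between -0.61 (TM7SF2) and 0.62 (CYP51), and none passed. INSIG1, itself a target of SREBP in known biology, was at 11.2 ± 4.75 TPM in tumours and 14.2 ± 9.13 TPM in pools, and SCAP at 13.1 ± 3.06 TPM in tumours and 13.1 ± 6.02 TPM in pools.

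**Figure D3:**
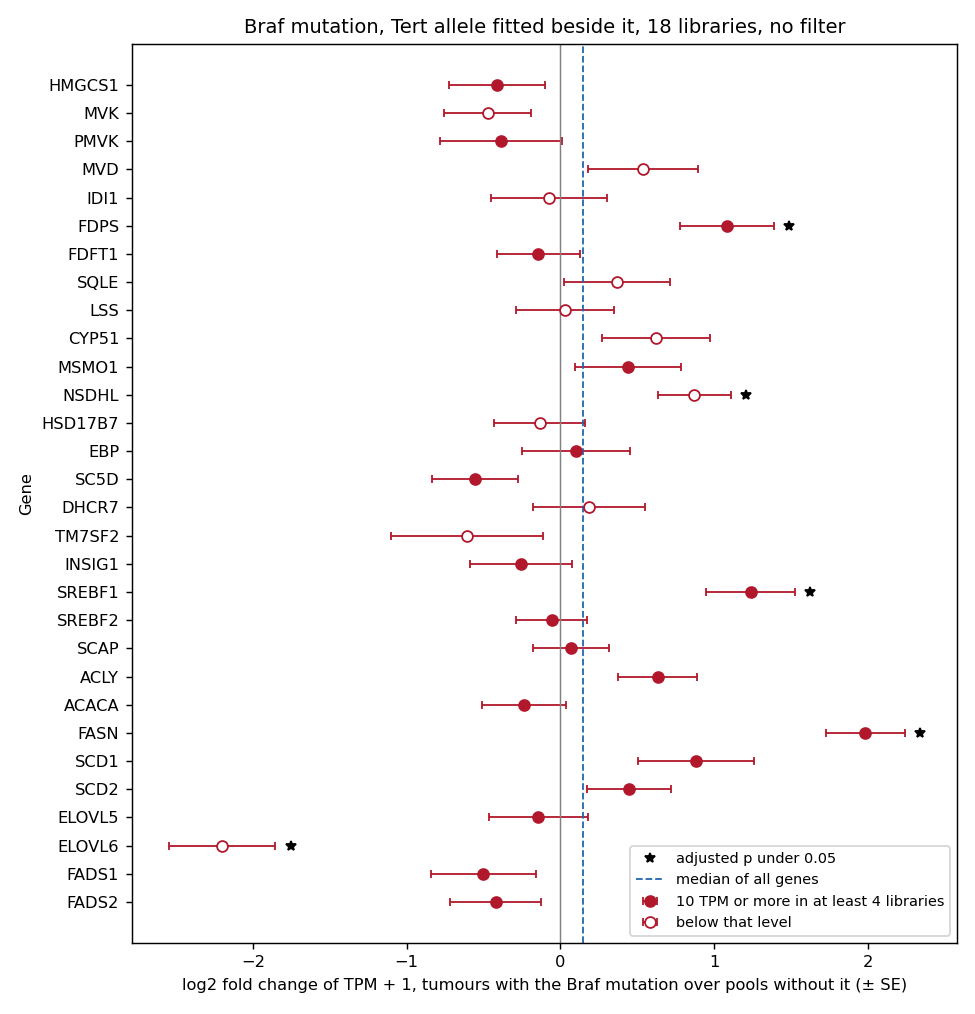
Log2 fold change with its SE of each of the 30 genes, tumours with the Braf mutation over pools without it, from the fit with no filter (filled circles reach 10 TPM in at least 4 libraries, open circles do not). FASN (1.985) lies farthest right and ELOVL6 (-2.20) farthest left, stars mark an adjusted p under 0.05, and the dashed line at 0.15 is the median of all genes in that fit.

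Other lipid genes, listed by role, were read beside the 30. Among 14 tested genes of sterol and lipid uptake, transport and efflux, 4 were higher and 3 lower in tumours, beside 15.4% higher and 10% lower over all genes tested, the background of each list below. CD36, a fatty acid translocase, had 45.5 to 219.7 TPM in tumours and 0.338, 4.04 and 2.91 TPM in the K5-Tert, Tert-123 and wild-type pools (log2 fold change 5.19, SE 0.339, adjusted p = 1.794e-10). Every tumour was above every pool for this gene. NPC2, which moves cholesterol out of lysosomes, was at 136.5 to 356.7 TPM in tumours and 44.5 to 83.8 TPM in pools (1.57, adjusted p = 4.393e-05). MYLIP, a ligase that marks lipoprotein receptors for degradation, was at 12.6 to 33.0 TPM in tumours and 46.5 to 74.5 TPM in pools (-1.20, adjusted p = 0.0018). These 3 passed without any 1 library. The others were less firm. The sterol exporter ABCG1 rose (1.65, adjusted p = 0.0105, not without the K5-Tert or the wild-type pool), and the lipoprotein receptor SCARB1 fell (-1.61, adjusted p = 0.0017, but adjusted p = 0.0608 without the Tert-123 pool). SOAT1, which esterifies cholesterol, rose by 0.91 (adjusted p = 0.0468) and the sterol carrier OSBP fell by 0.77 (adjusted p = 0.0468), and the call was lost without 14 and 12 single libraries in turn.

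A contrast like that of FASN and ELOVL6 appeared among the acyl-CoA synthetases, which activate fatty acids. ACSL4, which prefers arachidonate, had 17.2 to 93.8 TPM in tumours and 6.08 to 17.03 TPM in pools (log2 fold change 1.97, SE 0.335, adjusted p = 0.0001). ACSL3, a lipid droplet enzyme, had 6.16 to 16.2 TPM in tumours and 41.5 to 74.9 TPM in pools (-2.23, SE 0.289, adjusted p = 4.735e-06). Tumours and pools did not overlap for either gene, and both passed without any 1 library. With AGPAT2 (0.62, adjusted p = 0.0498, lost without 14 single libraries in turn and, at 0.0562, after rescaling), 2 of 9 tested genes of acyl-CoA and glycerolipid synthesis were higher and 1 lower, beside the same 15.4% and 10%.

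Of 8 tested further genes of fatty acid synthesis, FADS3 was higher (1.09, adjusted p = 0.0020) and HACD3, a dehydratase of the elongation cycle, lower (-1.003, adjusted p = 0.0014), both also without any 1 library. MID1IP1, a partner of ACACA, was lower too (-0.94, adjusted p = 0.0266), but not without the K5-Tert or the wild-type pool. Among 15 tested genes of fatty acid oxidation HADH was lower (-0.75, adjusted p = 0.0153), and not without the K5-Tert or the Tert-123 pool. The other 14 oxidation genes did not pass. Of 4 tested genes in side branches, ACAT1 was lower (-0.75, adjusted p = 0.0259, but adjusted p = 0.1735 without the K5-Tert pool), and 0 of 3 tested genes of SREBP processing and turnover passed. After rescaling ME1, SLC25A1, NR1H2 and ECI1 were lower as well and ACADL, an oxidation enzyme, higher (adjusted p = 0.0066 to 0.0384), and the other calls of these lists remained apart from AGPAT2.

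K5-Tert tumours were next set against Braf tumours, the comparison that asks what added Tert does beside BrafV600E. In the deposited values ACACA and SCD2 were lower, none of the 19 genes was higher, and 17 did not pass. Over all 7498 genes tested, 21.9% were lower and 0.587% higher, with a median log2 fold change of -0.48, and the median of the 19 genes was -0.41. RPPH1, the RNA component of RNase P, took 58.3%, 68.8%, 55.4% and 67.6% of all TPM in K5-Tert tumours, against 62.6%, 59.4%, 54.2% and 57% in Braf tumours. With RPPH1 taken out of the totals, 10506 genes passed the filter, and their median was -0.38. Against Tert-123 tumours the median was -0.28 in that fit and -0.48 as deposited. The part of RPPH1 in these shifts was not tested. In K5-Tert and Braf tumours, the 9 thyrocyte markers summed to 381 to 492 TPM and 595 to 755 TPM, and the 4 smooth muscle markers to 32.9 to 129 TPM and 12.7 to 24 TPM, with no overlap of the groups for either sum. The 7 white adipocyte markers summed to 8.52 to 31.3 TPM in K5-Tert tumours and 3.63 to 8.44 TPM in Braf tumours. The 2 brown adipocyte markers summed to 0 to 0.114 TPM in K5-Tert tumours and 0.35 to 1.29 TPM in Braf tumours. The groups did not overlap for these sums either. The part of these markers in the result was not tested. XIST, an RNA made from the inactive X chromosome of female cells, was at 0.0294, 0, 52.5 and 0 TPM in K5-Tert tumours, at 54.5 to 88.1 TPM in 4 Tert-123 tumours and 0 to 0.0636 TPM in the other 3, and at 63.9 to 89.9 TPM in Braf tumours, so sex differed between the groups as far as this gene shows. The labels name no batch, but sample names of K5-Tert tumours all carry higher numbers than those of the other tumours, and a batch, if any, cannot be told apart from K5-Tert. ACACA had 13.5, 6.13, 14.4 and 7.73 TPM in K5-Tert tumours, against 18.37, 16.48, 21.63 and 17.2 TPM in Braf tumours (-0.83, SE 0.250, adjusted p = 0.0262). SCD2 had 65.4, 25.5, 52.9 and 36.5 TPM in K5-Tert tumours, against 69.1, 71.4, 75.7 and 71.8 TPM in Braf tumours (-0.75, SE 0.267, adjusted p = 0.0497). For both genes all 4 K5-Tert tumours lay below all 4 Braf tumours, as they did for ACLY, LSS, TM7SF2, FASN and FADS2. For ACLY the margin was thin, with 92.5 TPM in the highest K5-Tert tumour and 92.9 TPM in the lowest Braf tumour. The share of all genes separated in this way was not computed. Whether these genes stand out from the shift of all genes is therefore not known.

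Neither fall passed once the shift of all genes was taken out. After TMM-type rescaling, which brought the median of all genes to 0.02, ACACA stood at -0.35 (adjusted p = 0.1317) and SCD2 at -0.23 (adjusted p = 0.3107), and 0 of 19 genes were lower beside 8.7% of all genes. SCAP, the SREBP escort, was then the 1 higher gene (0.55, SE 0.174, adjusted p = 0.0442) beside 6.5% of all genes, with 15.1, 9.51, 15 and 12.2 TPM in K5-Tert tumours and 10.2, 12.5, 15.2 and 11.4 TPM in Braf tumours as deposited, where the groups overlap. With single tumours left out in turn, SCAP passed in 3 of 15 such fits (adjusted p 0.0152 to 0.1247). As deposited, the number of lower genes was 0 without K5-Tert tumour 2 or 4 or Braf tumour 2, 3 or 4, was 1 without Braf tumour 1 or Tert-123 tumour 2, 3, 5 or 6, and was 4 without K5-Tert tumour 1. FASN (-0.55, SE 0.290, adjusted p = 0.1626) and FADS2 (-0.75, SE 0.325, adjusted p = 0.0940) were below Braf tumours in all 4 K5-Tert tumours, but did not pass as deposited, and stood at -0.02 and -0.27 after rescaling. With the log2 level of XIST in the fit, 3% of all genes were lower as deposited. ACACA (-0.74, adjusted p = 0.1436) and SCD2 (-0.84, adjusted p = 0.128) did not pass in that fit and FASN did (-1.10, SE 0.297, adjusted p = 0.0487). With XIST and rescaling together, chosen after seeing the data, FASN stood at -0.58 (adjusted p = 0.2386).

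**Figure D4:**
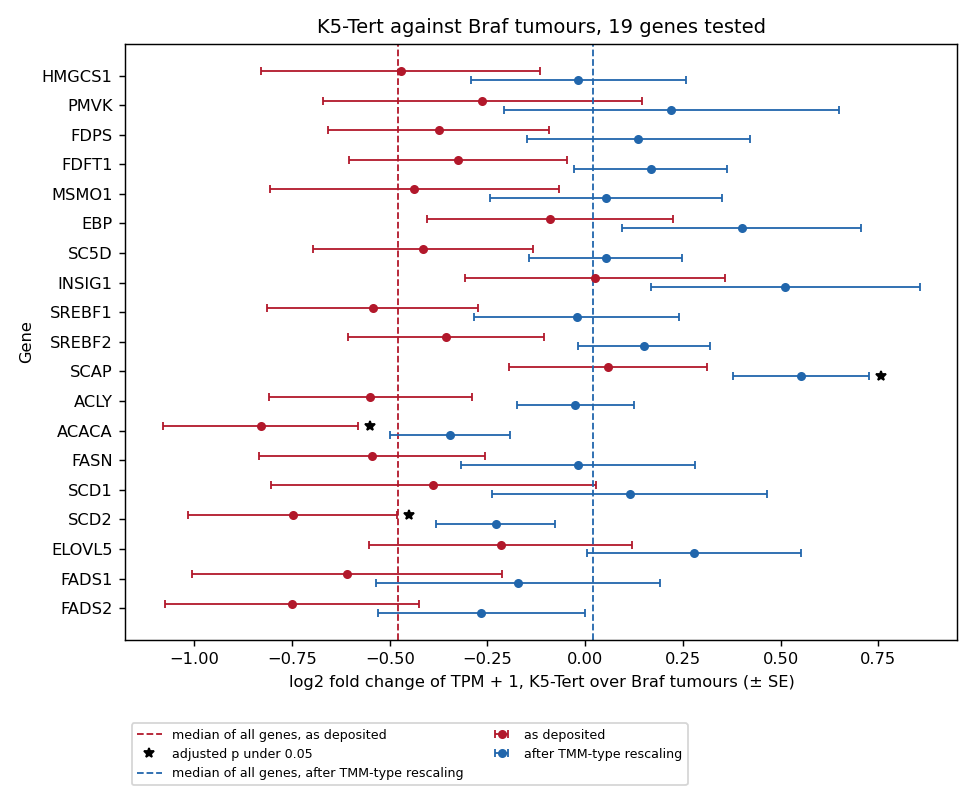
Log2 fold change with its SE of the 19 tested genes in K5-Tert over Braf tumours, as deposited (red) and after TMM-type rescaling (blue), with the median of all genes on each scale (dashed, -0.48 and 0.02). Most genes lie near the median of their scale, and stars mark ACACA and SCD2 as deposited and SCAP after rescaling.

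Set against Tert-123 tumours, K5-Tert tumours had 4 lower genes as deposited, ACACA (-0.76, adjusted p = 0.0184), ACLY (-0.64, adjusted p = 0.0432), SCD2 (-0.66, adjusted p = 0.0435) and SREBF1 (-0.65, adjusted p = 0.0468), and 0 higher. The background was 29.5% lower and 0.76% higher, the median of all genes again -0.48 and that of the 19 genes -0.34. ACLY had 92.5, 43.4, 82.2 and 72.3 TPM in K5-Tert tumours and a lowest, median and highest of 74.4, 105.1 and 173.8 TPM in Tert-123 tumours. The groups overlapped for all 4 genes. After rescaling 0 of 19 genes were lower and 0 higher, beside 8.75% lower and 7.27% higher over all genes. The lower calls were lost without K5-Tert tumour 2 or 4, and were 1 in number without any 1 of 9 tumours of the other groups. With XIST in the fit ACACA (adjusted p = 0.0427) and FASN (-0.74, adjusted p = 0.0310) were lower, beside 20.9% of all genes, and ACLY, SCD2 and SREBF1 did not pass (adjusted p = 0.0519 to 0.0590). SCAP was higher after rescaling in 2 of 15 fits with single tumours left out, without Tert-123 tumour 4 (0.55, adjusted p = 0.0099) or K5-Tert tumour 1 (0.54, adjusted p = 0.0241). Both comparisons share the K5-Tert tumours and are not independent.

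In Tert-123 against Braf tumours, 0 of the 19 genes passed by limma (lowest adjusted p = 0.9997, and 0 at an unadjusted p under 0.05). Nor did any of the 7498 genes pass, so the background was 0%, with 50 genes at an unadjusted p under 0.05. The log2 fold changes of the 19 ran between -0.36 (FADS2, SE 0.288) and 0.34 (EBP, SE 0.279). FASN averaged 129.5 ± 54.1 TPM in Tert-123 tumours and 126.0 ± 22.1 TPM in Braf tumours, and SREBF2 29.9 ± 4.01 TPM in Tert-123 tumours and 27.03 ± 0.7737 TPM in Braf tumours (SD, n = 7 and 4). This does not show that the groups are alike: the SE of these differences was 0.221 to 0.370.

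Among the other lipid lists, LBR, a sterol reductase of the nuclear envelope with an activity that overlaps TM7SF2, was lower in K5-Tert tumours on both scales. It had 18.1, 6.55, 14.6 and 7.32 TPM in K5-Tert tumours, against 17.6, 22.9, 23 and 24.2 TPM in Braf tumours (-0.96, SE 0.273, adjusted p = 0.0212 as deposited and 0.0315 after rescaling). Braf and K5-Tert tumours overlapped in 1 library each, and on both scales the call was lost without K5-Tert tumour 2 or 4 or Braf tumour 2, 3 or 4 (adjusted p up to 0.0887). It was also lost with XIST in the fit (-0.97, adjusted p = 0.0988 as deposited and 0.1168 after rescaling). Against Tert-123 tumours, which held 18.7 to 30.3 TPM and did not overlap, it stood at -1.16 (adjusted p = 0.0048 as deposited and 0.0037 after rescaling), and passed without any 1 tumour and with XIST in the fit (adjusted p = 0.0118 as deposited and 0.0094 after rescaling). It was the 1 gene of 4 tested in the side branches that passed in either comparison. Over all genes, 21.9% were lower than in Braf tumours as deposited and 8.7% after rescaling. Against Tert-123 tumours these shares were 29.5% and 8.75%. As deposited, ACSL4 and OSBP were also lower than in Braf tumours (adjusted p = 0.0381 and 0.0273), and AGPAT3 and OSBP lower than in Tert-123 tumours (adjusted p = 0.0214 and 0.0297), but none of these after rescaling. Genes higher after rescaling but not as deposited included ACSL5 and NR1H2 against Braf tumours and SLC25A1, ACSL5 and NR1H2 against Tert-123 tumours.

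Within the groups, the sterol enzymes were high together in certain libraries. K5-Tert tumour 3 held the highest value of its group for 13 of the 17 sterol enzymes (76.5%), as it did for 24.1% of all genes tested. Its FDPS (41.5 TPM), CYP51 (11.8 TPM), EBP (22.5 TPM) and IDI1 (4.74 TPM) stood apart from those of the other 3 K5-Tert tumours, which lay at 15.1 to 18.3, 2.76 to 3.46, 8.39 to 8.93 and 1.64 to 1.69 TPM. CYP51 is the lanosterol demethylase and IDI1 the isopentenyl isomerase. Among Tert-123 tumours the highest values of the 17 enzymes fell to tumours 4 (6 enzymes), 6 (8 enzymes) and 7 (3 enzymes), which held 20.0%, 4.75% and 33.1% of the highest values over all genes. In Braf tumours, tumour 2 held 11 of 17 (64.7%), and 23.4% over all genes.

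INSIG1 was high in some of these libraries and not in others. It was at 20.4 TPM in K5-Tert tumour 3 and at 5.79 to 8.41 TPM in the other K5-Tert tumours, at 23.5 TPM in Tert-123 tumour 4 and at 8.41 to 13 TPM in the other Tert-123 tumours, and at 8.15 to 10.53 TPM in Braf tumours, of which tumour 2 was the lowest. The K5-Tert pool held 24.4 TPM. Taken over the 17 sterol enzymes and relative to the mean of the Braf tumours and to all genes, the median log2 level was 0.44 in K5-Tert tumour 3, 0.35 in Tert-123 tumour 4 and 0.29 in Tert-123 tumour 6. The same median over the 9 fatty acid enzymes was -0.01, -0.34 and -0.03 in these 3 tumours, so the arms did not go together there. These 3 tumours also had the highest macrophage marker sums of all libraries (3867, 5215 and 2316 TPM) and the highest fibroblast marker sums (1676, 2379 and 882.8 TPM). The part of those cells in the sterol pattern was not tested.

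The fatty acid enzymes peaked elsewhere. Tert-123 tumour 7 held the highest value of its group for 5 of the 9, among them FASN (220.9 TPM), ACLY (173.8 TPM), SCD1 (53.0 TPM) and SCD2 (84.7 TPM), and in sum its 9 enzymes reached 598.1 TPM, the most of any library. K5-Tert tumour 2 held the lowest value of its group for 7 of the 9 and summed to 182.9 TPM, the least of any library, and it was lowest for 59.6% of all genes tested. Its ACLY was at 43.4 TPM and its SCD1 at 7.75 TPM. The share of all TPM taken by RPPH1 was lowest in Tert-123 tumour 7 (43.7%) and highest in K5-Tert tumour 2 (68.8%), and its part in these sums was not tested. Across its group SCD1 was at 48.4, 7.75, 26.1 and 31.0 TPM, the widest relative spread (16.7 TPM SD about a mean of 28.3 TPM) of the 4 fatty acid enzymes just named.

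**Figure D5:**
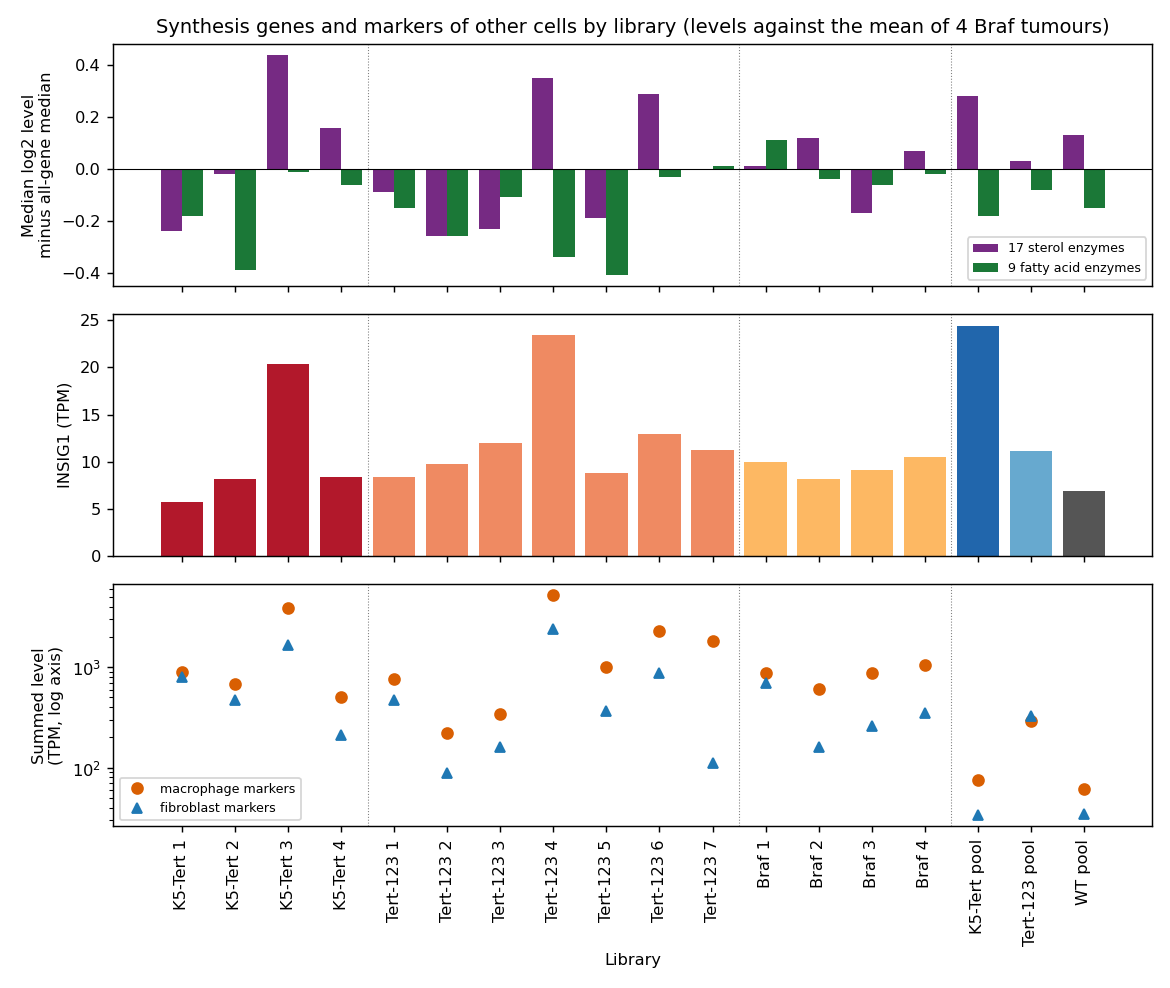
By library, the median log2 level of the 17 sterol and 9 fatty acid enzymes against the mean of the Braf tumours and minus the median of all genes (top), INSIG1 in TPM (middle), and summed macrophage and fibroblast markers in TPM on a log axis (bottom). K5-Tert tumour 3 and Tert-123 tumour 4 are high for sterol enzymes (0.44 and 0.35), for INSIG1 (20.4 and 23.5 TPM) and for both marker sums.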

How the data were processed

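Messenger RNA of YFP-sorted cells was sequenced by a low-input protocol, per the labels' protocols; the aligner, quantification and build are not given in the sources used. The deposited table held 23652 entries in 18 columns, each summing to 1000000, so the deposited values were treated as TPM; the table's name calls them normalized counts, and the total alone does not settle the unit. Read depth is unknown, so no counting interval is given. The 26 entries whose names had become dates were left out. Genes with 10 TPM or more in at least 4 of the libraries fitted were tested as log2(TPM + 1), which understates changes of low genes, with limma 3.58.1 in R 4.3.3 (mean-variance trend, two-sided, Benjamini-Hochberg over all genes tested, threshold 0.05). The 3 tumour groups were fitted together (12 residual degrees of freedom); the Braf comparison used all 18 libraries with the Tert allele as a covariate (14 residual degrees of freedom). Alternatives were pseudocounts 0.5 and 5, no filter, a filter at 50 TPM, TMM-type factors (trims of 30% of ratios, 5% of levels), quantile normalization, removal of a length trend, RPPH1 left out, XIST as a covariate, fits of the groups compared and omission of libraries. RPPH1 took 43.7% to 68.8% of TPM. The method was tested on simulated data. Libraries are numbered in series order, which pairs nothing. Named genes are all 30 members, members of the further lipid lists past the threshold (some are not reported here), TERT and marker sums by cell type. The members and lists were chosen with earlier results of these data known. Promoters are RefSeq windows of GRCm38.p6, the gene's strand, matched by symbol.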

Additional observations from a re-analysis of the deposited data

Results flagged for a closer look

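In 13 of 90 sets of libraries examined (1 gene in 1 tumour group), 1 library lay far from the others of its group. About 1 in 20 independent sets would do so by chance. These sets share libraries and are not independent, and the same share over all genes was not computed. Whether 13 of 90 is an excess is therefore not known. In K5-Tert tumour 3 the flagged values were IDI1 (4.74 TPM), FDPS (41.5 TPM), CYP51 (11.8 TPM) and EBP (22.5 TPM), all high. High values in Tert-123 tumours were MSMO1 in tumour 7 (39.5 TPM), ACLY in tumour 7 (174 TPM), DHCR7 in tumour 6 (4.15 TPM), INSIG1 in tumour 4 (23.5 TPM) and FADS2 in tumour 3 (28.1 TPM). In Braf tumours FDPS (34.2 TPM) and FADS2 (24.8 TPM) were high in tumour 2, FADS1 was high in tumour 4 (10.4 TPM) and SQLE was low in tumour 1 (4.43 TPM). For 7 genes every tumour of 1 Tert allele lay above its pool and every tumour of another below it, or the other way round. The differences were not tested, since each pool is 1 library, and the share of all genes that do so was not computed. Whether these genes differ in this from other genes is therefore not known. Relative to the mean of the Braf tumours, the median log2 level of all genes was 0.06, -0.34 and -0.32 in the K5-Tert, Tert-123 and wild-type pools. With K5-Tert minus with Tert-123, the Braf effect differed on the log2 scale by -1.17 for FDFT1, -1.3 for SCAP and -1.64 for ACACA. With K5-Tert minus with no Tert change, it differed by -1.71 for LSS, -2.81 for TM7SF2, -1.66 for INSIG1 and -1.47 for ACACA. With Tert-123 minus with no Tert change, it differed by 1.8 for EBP and -3.02 for TM7SF2.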

How the results depend on the processing

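With 1 choice changed at a time, Tert-123 against Braf tumours gave 0 genes in every setting, as did higher genes in K5-Tert against Tert-123 tumours (SCAP passed there after rescaling without 1 of 2 tumours). The 2 lower genes in K5-Tert against Braf tumours became 1 with pseudocount 5 (ACACA), 1 with XIST as a covariate (FASN, in place of both), and 0 with no filter, a filter at 50 TPM, TMM-type factors, quantile normalization, the length trend removed, K5-Tert tumours 2, 3 and 4 left out, no filter with TMM-type factors, or only the groups compared; leaving out 1 library gave 0 to 4. Higher genes there were 1 with TMM-type factors or quantile normalization, against 0. The 4 lower genes in K5-Tert against Tert-123 tumours became 2 with XIST (ACACA and FASN), 1 with no filter or RPPH1 left out, and 0 with the other settings just named except the pseudocounts; leaving out 1 library gave 0 to 5. The 3 higher genes with the Braf mutation became 6 with TMM-type factors, quantile normalization, RPPH1 left out or K5-Tert tumours 2, 3 and 4 left out, and 5 with the length trend removed, no filter with TMM-type factors or only the groups compared; leaving out 1 library gave 1 (without the Tert-123 pool) to 5. Lower genes there, 0, became 1 with no filter, TMM-type factors, quantile normalization or no filter with TMM-type factors, 2 with RPPH1 left out and 3 with the length trend removed. Fewer genes were tested with the 50 TPM filter and more with none; otherwise the cause was not tested. Leaving out K5-Tert tumour 3 with Tert-123 tumour 4, and no filter with TMM-type factors, were chosen after seeing the data. Of 2074 values of single genes under the alternatives, 1931 kept their direction and side of the threshold, 107 lost the call, 36 gained it and 0 reversed. Most of the 2074 values are of genes that had not passed, so the 1931 do not measure how stable the calls are. The losses fell on the calls in K5-Tert tumours, apart from FDPS and SREBF1 in the Braf comparison. No paired analysis was possible because the replicate numbers are not in the labels.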
